A study of Mus musculus with 8 samples.

Results

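The genes described are 10 regulators of G-protein signalling (RGS), Rgs2, Rgs4, Rgs6, Rgs7, Rgs8, Rgs10, Rgs12, Rgs14, Rgs16 and Rgs20, taken by symbol from the 21 numbered Rgs genes in the data. The exonic count table listed 55471 genes, and a second table with separate exonic and intronic counts listed 18513. All 10 members passed the filter on low counts in exons and in introns. The other 11 numbered Rgs genes served as the rest of the family.

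Each RGS protein carries an RGS domain that speeds up GTP hydrolysis by the alpha subunit of a heterotrimeric G protein, which shortens the signal of a G-protein-coupled receptor. The R4 subfamily (Rgs2, Rgs4, Rgs8, Rgs16) consists of small proteins, of which Rgs2 prefers Gq-type alpha subunits and Rgs4, Rgs8 and Rgs16 act on Gi/o and Gq types. Members of the R7 subfamily (Rgs6, Rgs7) work as stable complexes with the G beta subunit Gnb5. The R12 subfamily (Rgs10, Rgs12, Rgs14) includes long scaffold proteins with GoLoco motifs, and the RZ subfamily is represented by Rgs20, which acts on Gz. Neurons use these proteins to time responses to acetylcholine, dopamine, glutamate and opioids, and Rgs2 and Rgs4 are known as genes whose mRNA moves quickly with neuronal activity.

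RNA came from nuclei of forebrain excitatory neurons of male C57BL/6J mice, 6 to 8 weeks old, with the genotype CaMKIIalpha-Cre:SUN1-sfGFP in every sample. In this line the Camk2a promoter drives Cre, Cre switches on a GFP-tagged protein of the nuclear envelope, and tagged nuclei are pulled down with an antibody against GFP (the INTACT method). The 4 Pilo samples came from mice given scopolamine methyl nitrate at 1 mg/kg and, 30 min later, the muscarinic agonist pilocarpine at 340 mg/kg. Seizures developed over 100 min, and mice with Racine scores from 3 to 5 were kept. The 4 Mock samples came from mice given the same scopolamine and then saline, with no selection on behaviour. The labels do not say whether a sample is a separate mouse or a pool, and a p-value here sets a difference against sample-to-sample scatter that may be partly technical. The tag marks every forebrain cell in which the promoter was active, so cortical, hippocampal and other nuclei were measured together.

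The exonic table held 29356788 to 36161448 counts per library, and the intronic columns held 11928054 to 16703475. Introns took 31.9 to 33.7% of the second table's counts in Mock and 29.2 to 30.6% in Pilo. All 8 excitatory neuron markers were detected in every library, with a summed exonic level of 2590.4 to 3236 CPM in Mock and 2950.2 to 3500.4 CPM in Pilo, 4 of 8 being higher in Pilo by the test and 1 (Emx1) lower. CPM is the counts of a gene scaled to a common library size by TMM, and it compares samples for a given gene. Markers of other cells were above 0 in every library. The 8 inhibitory interneuron markers summed to 123 to 161 CPM in Mock and 161 to 251 CPM in Pilo, with 2 of 8 higher in Pilo by the test. The 7 striatal projection neuron markers summed to 234 to 330 CPM and 287 to 396 CPM, with 2 of 7 higher, and the 6 astrocyte markers to 743 to 1097 CPM and 894 to 1316 CPM. The 6 oligodendrocyte markers summed to 293 to 400 CPM and 376 to 674 CPM, with 1 of 6 higher, and the 4 precursor markers to 23.5 to 43.9 CPM and 27.1 to 63.0 CPM, with 1 of 4 higher. The 7 microglial markers spanned 36 to 48.1 CPM in Mock and 36.2 to 49.0 CPM in Pilo. The 5 endothelial markers stood apart in a single library, at 54.6 CPM in Pilo replicate 3 of the exonic table against 4.42 to 21.0 CPM in the others. Replicate numbers 2 and 3 are exchanged between the tables in both groups, so numbers below belong to the table named.

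DNA upstream of transcription starts is shown for the R4 genes because they include the largest rises and, in Rgs8, a neighbour that did not pass the main test. RefSeq (GRCm38.p6) gave promoters for 8 of the 10 members. The sequences shown are the 250 bases before the start, written 5′ to 3′ on the gene's strand, and their last bases reach at most 12 bases into the GENCODE transcript. Capitals mark matches on either strand to TGACG (the core of a cAMP response element, CRE), CCAAT and TATAAA.
Rgs2 (chr1:144004150-144004399, minus strand): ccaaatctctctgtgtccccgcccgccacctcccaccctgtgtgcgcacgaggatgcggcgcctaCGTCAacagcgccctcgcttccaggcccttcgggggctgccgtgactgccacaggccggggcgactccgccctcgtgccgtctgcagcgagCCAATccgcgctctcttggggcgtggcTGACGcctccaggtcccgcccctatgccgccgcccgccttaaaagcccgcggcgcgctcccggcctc
Rgs4 (chr1:169747643-169747892, minus strand): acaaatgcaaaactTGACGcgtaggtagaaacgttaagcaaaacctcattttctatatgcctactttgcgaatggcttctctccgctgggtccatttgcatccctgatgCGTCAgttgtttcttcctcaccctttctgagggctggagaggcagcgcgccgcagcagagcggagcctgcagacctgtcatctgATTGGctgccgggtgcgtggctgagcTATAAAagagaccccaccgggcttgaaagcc
Rgs16 (chr1:153740103-153740352, plus strand): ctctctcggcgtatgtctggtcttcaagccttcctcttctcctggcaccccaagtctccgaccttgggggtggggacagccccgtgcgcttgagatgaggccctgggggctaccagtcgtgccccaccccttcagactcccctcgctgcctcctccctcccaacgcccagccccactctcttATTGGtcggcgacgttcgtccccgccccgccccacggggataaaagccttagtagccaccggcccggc
Rgs8 (chr1:153652787-153653036, plus strand): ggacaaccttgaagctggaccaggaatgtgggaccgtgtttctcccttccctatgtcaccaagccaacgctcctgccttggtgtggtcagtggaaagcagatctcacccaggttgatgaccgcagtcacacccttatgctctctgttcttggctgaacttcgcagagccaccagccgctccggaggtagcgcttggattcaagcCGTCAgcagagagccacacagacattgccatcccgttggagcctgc

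None of the 8 members with a promoter held the full CRE, TGACGTCA, in this window, and 1.55% of all 32851 promoters of the same length did. The core TGACG stood upstream of Rgs2 (-67 to -63 and, on the other strand, -185 to -181) and Rgs4 (-236 to -232 and, on the other strand, -141 to -137). It also stood upstream of Rgs8 (-46 to -42, other strand) and, only at the second start, Rgs12 (-82 to -78). It was in 17.8% of all promoters. CCAAT was found for Rgs2, Rgs4, Rgs16 and, at further starts, Rgs8, against 33.8% of all promoters. TATAAA was found only for Rgs4 among the members, at -31 to -26, against 12.4%. The AP-1 letters TGANTCA occurred at the second Rgs12 start, against 6.75%, and the serum response element, searched by name with a pattern that allows either A or T at its inner bases, occurred in none, against 1.47%. TGACGTCA contains TGACG on each strand. These are letter matches in a short window and not binding sites. The shares are per promoter, while a member was listed if any of its starts matched. Rgs8 and Rgs12 have further starts, so the members and the shares are in unlike units.

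After pilocarpine, 5 of the 10 members rose in exonic RNA and 0 fell (edgeR quasi-likelihood test, Benjamini-Hochberg adjusted p under 0.05). Rgs2 rose most, followed by Rgs4, Rgs16, Rgs12 and Rgs7. Over all 19176 genes tested, 15.6% were called higher and 16.2% lower. The members' median log2 fold change was 0.38, beside 0.005 over all genes tested. The members were chosen with earlier results of these data known. Over the 17 numbered Rgs genes tested in exons, 6 rose and 1, Rgs19, fell, with a median of 0.22. At an unadjusted p under 0.05, 8 members were higher and 0 lower, beside 20.4% and 21.1% of all genes. DESeq2 and limma-voom also called 0 members lower, beside 3135 and 3129 genes in all. Replicate numbers were taken as pairs because same-numbered libraries deviated together from their group means. The main test leaves this pairing out. With the number as a block 9 members were called higher, all except Rgs10, beside 23.8% of all genes. The exonic groups did not overlap for 6 of 10 members, against 32% of all genes. A change in RNA per nucleus and a change in the share of nuclei of a kind cannot be told apart in these bulk samples. The part of the higher interneuron, striatal and oligodendrocyte marker levels of Pilo in the members' values was not tested. Without the Mock and Pilo library with the most endothelial marker RNA, exonic Rgs20 was also called higher (0.44, edgeR adjusted p = 0.0382).

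**Figure D1:**
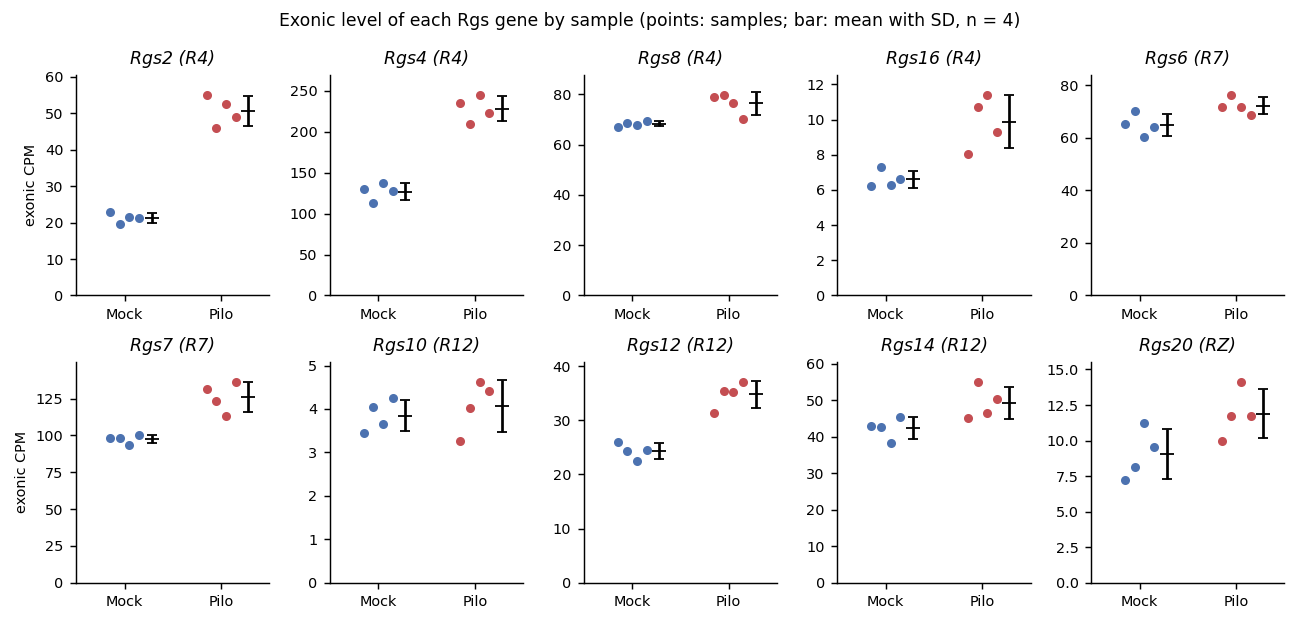
Exonic CPM of the 10 members in each Mock (blue) and Pilo (red) sample, with the mean and SD (n = 4) beside the points. Rgs2 runs from 19.5 to 23.0 CPM in Mock and from 45.9 to 55.1 CPM in Pilo, while the Mock samples of Rgs10 lie within its Pilo range.

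Rgs2 (chromosome 1, 143999338 to 144004161, minus strand, GRCm38, in GENCODE vM21 as for all genes here) encodes the Gq-preferring member of the R4 group. Its exonic level was 23.0, 19.5, 21.5 and 21.4 CPM in Mock replicates 1 to 4 and 55.1, 45.9, 52.6 and 49.0 CPM in Pilo. All Pilo samples lay above all Mock samples, with a wide gap. The means were 21.4 ± 1.43 and 50.6 ± 4.07 CPM (SD, n = 4), a 2.37-fold difference, with a log2 fold change of 1.25 (SE 0.08, edgeR adjusted p = 1.12e-06). In introns Rgs2 read 3.64, 4.50, 6.32 and 5.70 CPM in Mock and 24.9, 29.3, 21.0 and 22.4 CPM in Pilo. The groups were again far apart, and the intronic rise was 2.28 on the log2 scale (SE 0.18, edgeR adjusted p = 4.55e-07).

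Rgs4, the best-studied RGS protein of cortex and a Gi/o and Gq regulator, lies on chromosome 1 at 169741477 to 169747642. Its exonic level was 130.3, 112, 137 and 128 CPM in Mock and 235, 209.6, 245 and 222 CPM in Pilo. Every Pilo sample exceeded every Mock sample. The log2 fold change was 0.84 (SE 0.08, edgeR adjusted p = 1.27e-05), with means of 127 ± 10.5 and 228 ± 15.4 CPM (SD, n = 4). Intronic Rgs4 was 16.9, 17.8, 19.3 and 22.5 CPM in Mock and 56.1, 72.3, 57.1 and 54.8 CPM in Pilo. Pilo replicate 2 stood above the other Pilo samples, and the intronic log2 fold change was 1.65 (SE 0.13, edgeR adjusted p = 4.55e-07).

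Rgs16 and Rgs8 are neighbours on chromosome 1, at 153740349 to 153745468 and 153653025 to 153700323, with 40025 bases and no protein-coding gene between them. Rgs16, a Gi/o and Gq regulator, had exonic levels of 6.24, 7.27, 6.26 and 6.61 CPM in Mock and 8.05, 10.7, 11.4 and 9.31 CPM in Pilo. The lowest Pilo sample was above the highest Mock sample, and Rgs16 rose by 0.58 on the log2 scale (SE 0.13, edgeR adjusted p = 0.00392). Its introns held only 18 to 58 counts per library. Intronic Rgs16 had a log2 fold change of 0.72 (SE 0.32) that did not pass the test (edgeR adjusted p = 0.0807), although it did with the replicate block (adjusted p = 0.0111) and without Mock replicate 3 of the second table (1.05, adjusted p = 0.0164). An antisense gene, Gm28513, covers 10.1% of the Rgs16 exons. The libraries were directional, but the strand setting of the counting is not given in the sources used here, so its reads may be included.

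Rgs8, another Gi/o and Gq regulator, had a smaller difference in exons. It was measured at 67.1, 68.4, 67.9 and 69.5 CPM in Mock and 79.0, 79.9, 76.7 and 70.1 CPM in Pilo. The groups did not overlap, but Pilo replicate 4 sat close to the Mock samples. The log2 fold change was 0.16 (SE 0.07, edgeR adjusted p = 0.0836), and it passed the threshold with the replicate block (adjusted p = 0.0238) and in DESeq2 (adjusted p = 0.0438). Intronic Rgs8 had the opposite sign, with 13.1, 15.6, 15.4 and 17.7 CPM in Mock and 11.9, 14.0, 15 and 13.2 CPM in Pilo. Its groups overlapped, and the intronic log2 fold change of -0.20 (SE 0.14) did not pass (edgeR adjusted p = 0.282).

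In the R7 pair, Rgs7 rose and Rgs6 did not pass the main test. Rgs7 (chromosome 1, 175059087 to 175492500), a Gi/o regulator of neurons, had exonic levels of 98.1, 98.4, 93.3 and 100.25 CPM in Mock and 131, 123, 113 and 136 CPM in Pilo. No samples overlapped, and the exonic log2 fold change was 0.37 (SE 0.07, edgeR adjusted p = 0.0022). Rgs7 has long introns, and its intronic level was 454 ± 46.7 CPM in Mock and 615 ± 66.7 CPM in Pilo (SD, n = 4). That is a log2 fold change of 0.44 (SE 0.11, edgeR adjusted p = 0.00368). The tables differed in how many Rgs7 exonic reads they counted, the exonic table holding 1.12 times the second, and the reason was not tested.

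Rgs6 (chromosome 12, 82588292 to 83162056), which acts on Gi/o signals in brain and heart, read 65.2, 70.2, 60.2 and 64.2 CPM in Mock exons and 71.8, 76.5, 71.8 and 68.7 CPM in Pilo exons. Pilo replicate 4 fell below the highest Mock sample. Its exonic log2 fold change was 0.15 (SE 0.07, edgeR adjusted p = 0.122) and its intronic 0.16 (SE 0.10, edgeR adjusted p = 0.236). With the replicate block the adjusted p was 0.0252 in exons and 0.0219 in introns.

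Among the R12 genes, Rgs12 rose, while Rgs14 and Rgs10 did not pass the test. Rgs12 (chromosome 5, 34949445 to 35039644), a large scaffold with PDZ and GoLoco parts, had 26.0, 24.3, 22.4 and 24.6 CPM in Mock exons and 31.3, 35.5, 35.3 and 37.1 CPM in Pilo exons. All Pilo values were higher, by 0.52 on the log2 scale (SE 0.08, edgeR adjusted p = 0.000455). Intronic Rgs12 was 25.8 ± 0.26 CPM in Mock and 38.7 ± 3.36 CPM in Pilo (SD, n = 4), a log2 fold change of 0.59 (SE 0.11, edgeR adjusted p = 0.000602). The antisense gene Gm43791 overlaps 5.5% of the Rgs12 exons.

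Rgs14 (chromosome 13, 55369732 to 55384687), a scaffold known from hippocampal area CA2, had 43.0, 42.7, 38.4 and 45.6 CPM in Mock exons and 45.0, 55.1, 46.6 and 50.5 CPM in Pilo exons. The lowest Pilo sample lay just under the highest Mock sample. Its exonic log2 fold change of 0.22 (SE 0.08) did not pass (edgeR adjusted p = 0.0657), but did with the block (adjusted p = 0.00861), in DESeq2 (adjusted p = 0.0438), without Pilo replicate 1 (0.26, adjusted p = 0.036) and without Pilo replicate 3 (0.26, adjusted p = 0.0423). The intronic log2 fold change of Rgs14 was 0.05 (SE 0.11, edgeR adjusted p = 0.752).

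Rgs10 (chromosome 7, 128373621 to 128418758), a short Gi/o regulator that microglia and neurons make, was low. Its exonic level was 3.45, 4.04, 3.65 and 4.26 CPM in Mock and 3.26, 4.01, 4.62 and 4.41 CPM in Pilo. The Mock range lay within the Pilo range, and the log2 fold change was 0.08 (SE 0.16, edgeR adjusted p = 0.734). Intronic Rgs10 differed by 0.03 on the log2 scale (SE 0.19, edgeR adjusted p = 0.926).

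Rgs20 (chromosome 1, 4909576 to 5070285), the Gz regulator, had 7.23, 8.14, 11.3 and 9.52 CPM in Mock exons and 9.94, 11.7, 14.1 and 11.7 CPM in Pilo exons. The groups overlapped through Mock replicate 3 and Pilo replicate 1. On the other strand, Atp6v1h overlaps 3% of the Rgs20 exons and the pseudogene Gm17101 2.95%, and their reads may be included. The exonic log2 fold change was 0.39 (SE 0.15, edgeR adjusted p = 0.0602), and it passed with the block (adjusted p = 0.00167), in DESeq2 (adjusted p = 0.0387), without the filter on low counts (adjusted p = 0.0359), without Mock replicate 3 (0.54, adjusted p = 0.0155) and without Pilo replicate 1 (0.47, adjusted p = 0.0319). In introns Rgs20 read 27, 43.0, 35.4 and 42.6 CPM in Mock and 43.0, 55.1, 42.5 and 53.5 CPM in Pilo. The intronic rise of 0.39 (SE 0.15) passed narrowly (edgeR adjusted p = 0.0475). It was lost without Mock replicate 1 (0.26, adjusted p = 0.152), Mock replicate 3 (0.37, adjusted p = 0.0976), Pilo replicate 2 (0.33, adjusted p = 0.12) or Pilo replicate 4 (0.34, adjusted p = 0.124).

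Intronic reads mostly mark RNA that has not yet been spliced. Exons of other genes lie in introns of some members, such as 3725 bases of Gm16041 in Rgs20 and 1824 bases of 5730408A14Rik in Rgs7. Their reads may be included, and their part was not tested. In introns, 5 of 10 members rose, Rgs2, Rgs4, Rgs12, Rgs7 and Rgs20, and 0 fell (edgeR). Over 13318 genes tested, 19.6% were called higher and 21.9% lower. The median intronic log2 fold change of the members was 0.41, beside -0.004 over all genes. Over the 16 numbered Rgs genes tested in introns, 5 rose and 1, Rgs19, fell, with a median of 0.15. At an unadjusted p under 0.05, 6 members were higher and 0 lower, beside 23.4% and 25.7% of all genes. DESeq2 and limma-voom called 0 members lower, beside 2882 and 2912 genes in all. With the replicate block 7 rose, Rgs16 and Rgs6 being added, beside 27.7% of all genes. The intronic groups did not overlap for 4 of 10, against 37% of all genes.

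**Figure D2:**
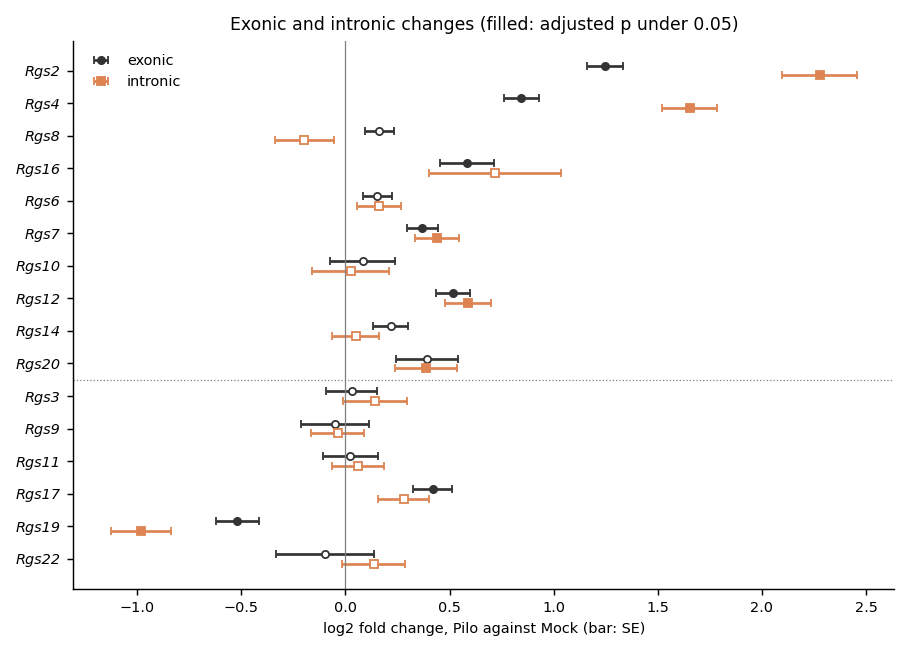
Log2 fold change of Pilo against Mock with its SE for exons (circles) and introns (squares), filled where the adjusted p is under 0.05, for the members above the dotted line and the other Rgs genes tested in both regions below it. Rgs2 and Rgs4 lie farther from 0 in introns than in exons on the right, and Rgs19 does so on the left.

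The exonic and intronic changes were compared within the second table as the interaction of region with treatment. Rgs2 and Rgs4 rose less in exons than in introns, and Rgs8 stood the other way. The exonic change of Rgs2 was 1.05 lower than its intronic change (exon minus intron -1.05, SE 0.16, edgeR adjusted p = 0.000556). For Rgs4 the difference was -0.83 (SE 0.11, edgeR adjusted p = 0.000199). For Rgs8 it was 0.33 (SE 0.10, edgeR adjusted p = 0.03). Across 13047 genes, the exonic change was below the intronic in 12.8% and above it in 13.5%, so 2 of 10 members below and 1 of 10 above are not far from the share of all genes. The other 7 members differed by between -0.17 (Rgs16, SE 0.25) and 0.15 (Rgs14, SE 0.09) without passing the test. The Rgs8 call was lost without Mock replicate 2 (adjusted p = 0.0664), Mock replicate 4 (0.28, adjusted p = 0.0823), Pilo replicate 1 (0.26, adjusted p = 0.0851) or Pilo replicate 2 (adjusted p = 0.0652). A single scaling factor per sample moved the median of all genes from 0.009 to 0.26, and under it Rgs2 (-0.81) and Rgs4 (-0.58) were still called.

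The share of each gene's counts that fell in introns is a different measure from the interaction. It includes the lower intronic share over all genes in Pilo, which scaling per region takes out. Of the Rgs2 counts in the second table, 9.88 ± 2.57% were intronic in Mock and 16 ± 0.86% in Pilo (SD, n = 4). The Rgs4 share was 6.53 ± 1.1% in Mock and 9.42 ± 0.70% in Pilo. Both went up while the intronic share over all genes was lower in Pilo. For Rgs8 the share went from 9.46 ± 1.11% to 6.55 ± 0.69%, and for Rgs14 from 38.9 ± 1.51% to 32.6 ± 1.43%. The exon minus intron difference of Rgs14 did not pass the test (0.15, edgeR adjusted p = 0.237). Rgs7 was mostly intronic, with 70.8 ± 3.04% in Mock and 68.2 ± 1.02% in Pilo. The genes differ in intron length, with 1197 bases in Rgs2, 3068 in Rgs4 and 427395 in Rgs7, so shares compare groups for a given gene and not genes.

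**Figure D3:**
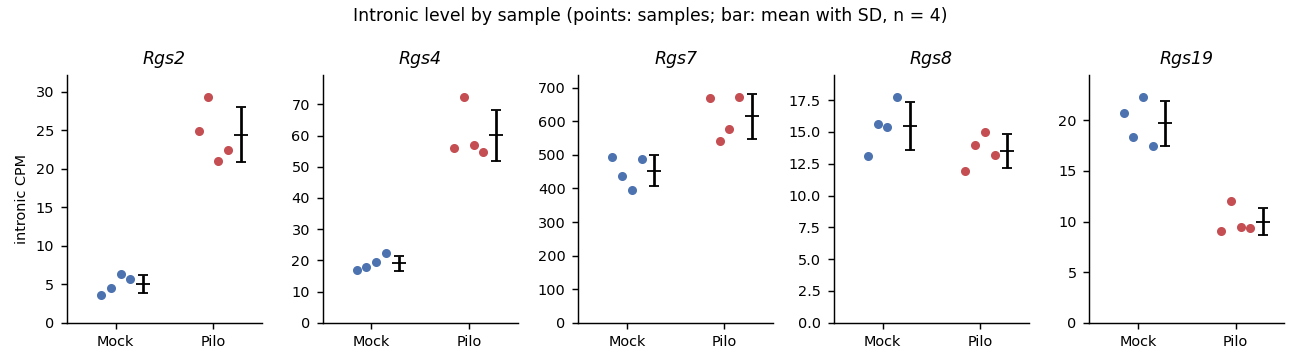
Intronic CPM by sample for Rgs2, Rgs4, Rgs7, Rgs8 and Rgs19 in Mock (blue) and Pilo (red), with mean and SD (n = 4). Rgs4 is at 16.9 to 22.5 CPM in Mock and 54.8 to 72.3 CPM in Pilo, and Rgs19 is at 17.5 to 22.3 CPM and 9.09 to 12 CPM.

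Levels of different genes were compared per kilobase of exon. In Mock nuclei Rgs11 led the family with 76.5 ± 12.7 CPM per kb (SD, n = 4). The gene Arhgdig, on the other strand, overlaps 3.28% of the Rgs11 exons. The highest member was Rgs4 at 41.0 ± 3.39 CPM per kb, followed by Rgs7 at 16.2 ± 0.49 and Rgs14 at 10.0 ± 0.70 CPM per kb. Rgs8 (7.08 ± 0.10 CPM per kb), Rgs6 (6.48 ± 0.41) and Rgs2 (5.89 ± 0.39) came next and did not differ beyond their spread from neighbour to neighbour, with Rgs19 and Rgs17 among them. The lowest members were Rgs12 (2.87 ± 0.18 CPM per kb), Rgs16 (2.82 ± 0.21), Rgs10 (2.25 ± 0.21) and Rgs20 (2.13 ± 0.41), of which Rgs12 overlapped Rgs16 and Rgs10 overlapped Rgs20. In Pilo nuclei the Rgs2 level was 14.0 ± 1.12 CPM per kb, beside 11.6 ± 1.05 for Rgs14. Rgs14 was the higher of these in every Mock sample and in Pilo replicate 2, and Rgs2 in the other 3 Pilo samples. Rgs4 reached 73.6 ± 4.96 CPM per kb, beside 77.7 ± 12 for Rgs11.

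**Figure D4:**
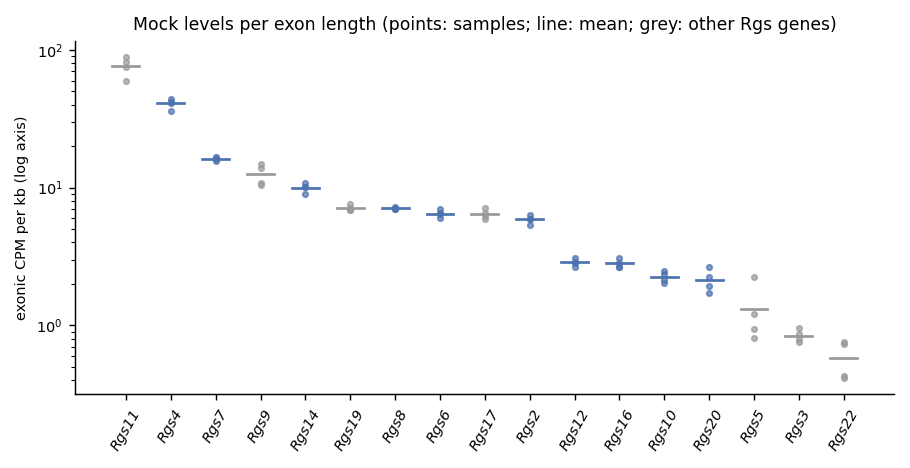
Exonic CPM per kilobase of exon in the 4 Mock samples (points) with the mean (line), on a log axis, for members (blue) and other Rgs genes (grey). The order runs from Rgs11 at 76.5 through Rgs4 at 41.0 to Rgs22 at 0.583 CPM per kb.

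By a rule on the shape of the profile, the genes most like Rgs2 over the 8 samples were Olfr267, Ptbp3 and Ubash3b among 12847 candidates. The rule took log2(CPM + 0.5) centred on the Mock mean and the root mean square difference from Rgs2, which was 0.0988, 0.101 and 0.108. Ptbp3, an RNA-binding splicing regulator, changed by 1.20 on the log2 scale (SE 0.09), and Ubash3b, a phosphatase, by 1.22 (SE 0.11). Olfr267, an olfactory receptor gene, was low, between 0.905 and 0.962 CPM in Mock and 2.55 to 3.32 CPM in Pilo. Its fitted log2 fold change was 1.70 (SE 0.18), above that of Rgs2, since the added 0.5 understates the change of a gene at this level.

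In the rest of the family, 7 of 11 genes passed the exonic filter, of which Rgs17 rose and Rgs19 fell. Rgs17, an RZ gene like Rgs20, had 51.5, 48.9, 59.1 and 54.5 CPM in Mock and 80.2, 60.9, 76.0 and 69.1 CPM in Pilo. The groups did not overlap, and its exonic log2 fold change was 0.42 (SE 0.09, edgeR adjusted p = 0.00395). Its intronic value of 0.28 (SE 0.12) did not pass (edgeR adjusted p = 0.0825), but did with the replicate block (adjusted p = 0.0108), without Mock replicate 2 (0.35, adjusted p = 0.0485) and without Pilo replicate 3 (0.35, adjusted p = 0.048).

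Rgs19, also of the RZ group and known as GAIP, was the only Rgs gene tested that fell in this comparison. It read 15.8, 16.9, 15.2 and 15.5 CPM in Mock exons and 10.5, 9.69, 12.6 and 11.4 CPM in Pilo exons. All Pilo samples were lower, and Rgs19 fell by 0.52 on the log2 scale (SE 0.10, edgeR adjusted p = 0.00183). Its intronic level was 20.7, 18.4, 22.3 and 17.5 CPM in Mock and 9.09, 12, 9.49 and 9.34 CPM in Pilo. The intronic change was larger, -0.98 on the log2 scale (SE 0.14, edgeR adjusted p = 9.55e-05). The exonic change lay 0.44 above the intronic (SE 0.11, edgeR adjusted p = 0.00899, 0.07 with the replicate block).

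Rgs3, Rgs9, Rgs11 and Rgs22 did not pass the exonic test, with log2 fold changes from -0.10 (Rgs22, SE 0.24) to 0.03 (Rgs3, SE 0.12). Rgs9, the striatal R7 gene, was at 80.0 ± 13.6 CPM in Mock and 77.3 ± 16.2 CPM in Pilo (SD, n = 4). Rgs5, a gene of pericytes, was 4.31, 3.68, 10.2 and 5.50 CPM in Mock and 6.05, 3.88, 25.8 and 5.57 CPM in Pilo. The high values belong to replicate 3 of each group, the libraries with the most endothelial marker RNA (21.0 and 54.6 CPM summed) and, in Pilo, the most RNA of the 5 pericyte markers (35.9 CPM against 12.1 to 26.7 elsewhere). Its log2 fold change was 0.79 (SE 0.71, edgeR adjusted p = 0.454) and -0.19 without Pilo replicate 3. Rgs1, Rgs13, Rgs18 and Rgs21 had at most 12 exonic counts in any library and were not tested.

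Around the RGS proteins, 69 other genes of G-protein signalling were grouped by role, and 61 of them could be tested in exons. Of these 16 rose and 5 fell, with a median log2 fold change of 0.15. With the replicate block 27 rose and 5 fell, the 11 added being Gnai1, Gnai2, Gna11, Gnas, Gnb1, Gng11, Grk6, Gpsm1, Axin2, Snx13 and Plcb1, at blocked adjusted p from 0.00071 (Gpsm1) to 0.0286 (Snx13). In introns 10 of 53 rose and 9 fell, with the block 14 and 14. The exonic change was above the intronic in 8 of 53 and below it in 4. Leaving out a single library gave 14 to 18 rises and 2 to 5 falls in exons, with 2 falls without Mock replicate 3 and 3 falls without Mock replicates 1 or 4 or Pilo replicates 1, 2 or 4. Shares over all genes are those given for the members, with 23.2% lower in exons and 29.2% lower in introns under the block.

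**Figure D5:**
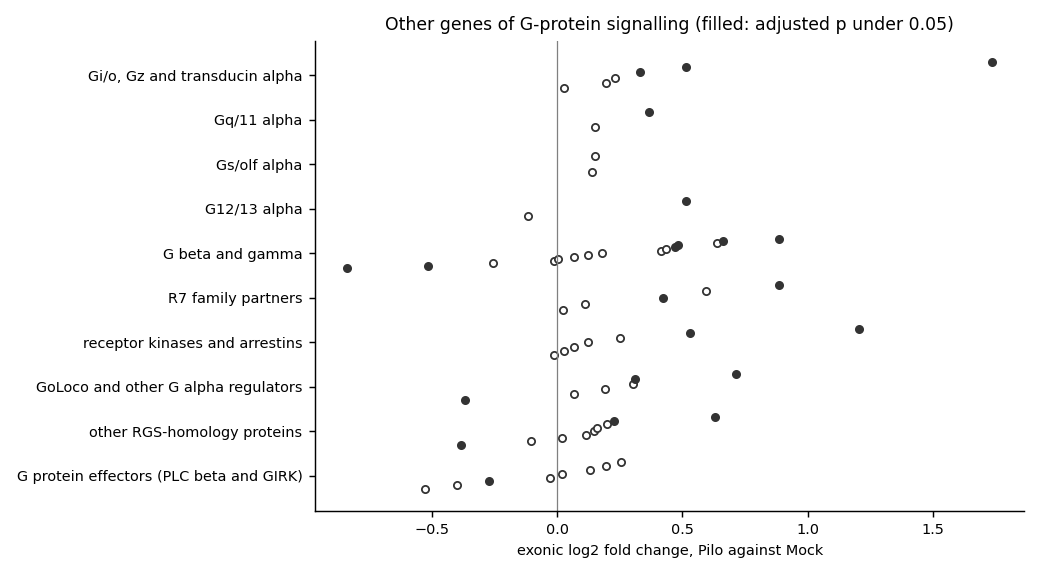
Exonic log2 fold change of Pilo against Mock for each tested gene (points) in 10 lists of G-protein signalling genes, filled where the adjusted p is under 0.05. The highest point is Gnat1 at 1.74 and the lowest is Gng10 at -0.84.

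Of the 5 partners of the R7 proteins, all tested in exons, 2 rose and 3 did not pass the test. Gnb5, the G beta subunit that Rgs6 and Rgs7 need for stability, had 79.8, 85.6, 86.2 and 79.8 CPM in Mock and 164, 159, 136 and 154 CPM in Pilo. The groups were far apart, and Gnb5 rose by 0.89 in exons (SE 0.08, edgeR adjusted p = 6.04e-06) and by 1.20 in introns (SE 0.09, edgeR adjusted p = 4.36e-07). Rgs7bp, which anchors R7 complexes to the membrane, had 166, 147, 174 and 157 CPM in Mock and 232, 209.9, 206 and 214 CPM in Pilo. It rose by 0.42 in exons (SE 0.08, edgeR adjusted p = 0.00114) and by 0.76 in introns (SE 0.11, edgeR adjusted p = 5.51e-05). The receptor Gpr158, which binds Rgs7, had a log2 fold change of 0.03 (SE 0.09) and did not pass. The exonic change was below the intronic for Rgs7bp (-0.37, SE 0.08) and Gnb5 (-0.35, SE 0.08), but with a single scaling factor per sample neither was called, at -0.12 (adjusted p = 0.256) and -0.10 (adjusted p = 0.188).

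Among the alpha subunits that RGS proteins act on, 3 of 6 tested Gi/o, Gz and transducin genes rose in exons. Gnai3, a Gi subunit, rose by 0.51 (SE 0.08), and Gnao1, the Go subunit, by 0.33 (SE 0.10, edgeR adjusted p = 0.0264). The Gnao1 call was lost without Mock replicate 1 (0.31, adjusted p = 0.07), Mock replicate 2 (0.28, adjusted p = 0.0813), Pilo replicate 3 (0.31, adjusted p = 0.0553) or Pilo replicate 4 (0.28, adjusted p = 0.0955). Gnat1, rod transducin, rose by 1.74 (SE 0.36) from a very low 0.198 ± 0.06 CPM. In introns 1 of 5 tested genes of this list rose, Gnai3 at 0.39 (SE 0.11), and 2 fell. The falls were Gnai2 at -0.57 (SE 0.17, edgeR adjusted p = 0.012) and Gnaz at -0.50 (SE 0.12, edgeR adjusted p = 0.00386). In exons Gnai2 (0.20, SE 0.08) and Gnaz (0.03, SE 0.08) did not pass the main test. Their exonic change was above the intronic, by 0.74 (edgeR adjusted p = 0.00893) and 0.51 (edgeR adjusted p = 0.00247). Of the Gq and G12/13 subunits, Gnaq rose by 0.37 (SE 0.08) and Gna12 by 0.52 (SE 0.11) in exons, 2 of 4 tested. The intronic values of Gnaq (-0.11, SE 0.18) and Gna12 (0.08, SE 0.16) did not pass. Of 2 Gs/olf genes, 0 passed the main test in exons or introns.

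Of 15 tested G beta and gamma genes, which form the partner dimer of the alpha subunit, 4 rose and 2 fell in exons. Besides Gnb5 these were Gng4, by 0.66 (SE 0.10), Gng2, by 0.48 (SE 0.07), and Gng12, by 0.47 (SE 0.12). Gnb4 fell by 0.51 (SE 0.10) and Gng10 by 0.84 (SE 0.23), the latter at 1.28 ± 0.18 CPM in Mock. In introns 2 of 13 tested rose, Gnb5 and Gng4 (0.74, SE 0.15), and 4 fell. Those lower were Gnb4 (-0.58, SE 0.14), Gng10 (-0.38, SE 0.10), Gng7 (-0.52, SE 0.17) and Gng13 (-0.72, SE 0.18). Gng2 (0.34, SE 0.13) and Gng12 (0.10, SE 0.21) did not pass in introns.

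Of 7 tested receptor kinases and arrestins, which silence the receptors themselves, 2 rose in exons. Grk5 had 9.09, 8.49, 8.68 and 7.31 CPM in Mock and 17.8, 20.9, 18.0 and 21.0 CPM in Pilo. Every Pilo sample was higher, by 1.21 on the log2 scale (SE 0.11, edgeR adjusted p = 6.04e-06). In exons this is close to the size in Rgs2 (the difference between these genes was not tested). In introns Grk5 rose by 0.82 (SE 0.13), beside 2.28 (SE 0.18) for Rgs2. Grk2, the beta-adrenergic receptor kinase, rose by 0.53 (SE 0.11). In introns 3 of 7 rose, Grk2, Grk5 and Grk6, and 1 fell, Grk4 at -0.55 (SE 0.17).

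Of the GoLoco and other alpha subunit regulators 2 of 6 rose and 1 fell in exons, and 1 of 5 rose and 0 fell in introns. Ric8a, a chaperone and exchange factor of alpha subunits, rose by 0.71 in exons (SE 0.14) and 1.24 in introns (SE 0.14), and Ric8b, its relative for Gs, by 0.31 in exons (SE 0.07). The intronic value of Ric8b was -0.04 (SE 0.10), and with exons and introns summed it was 0.10 and not called (adjusted p = 0.337). Gpsm2 fell by 0.37 (SE 0.13, edgeR adjusted p = 0.0429), a call kept only without Pilo replicate 3 when single libraries were left out, the highest adjusted p elsewhere being 0.127.

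Among 9 other proteins with an RGS-like domain, Snx25 rose by 0.63 in exons (SE 0.08) and 0.87 in introns (SE 0.10). Arhgef11 rose by 0.23 (SE 0.07, edgeR adjusted p = 0.03) and Akap10, a kinase anchor, fell by 0.38 (SE 0.12, edgeR adjusted p = 0.0252). Leaving out single libraries ended the Akap10 call in 6 of 8 cases, and adjusted p reached 0.0887. For Arhgef11 it did so without Mock replicates 3 or 4 and Pilo replicates 1, 2 or 4, with adjusted p up to 0.0799. Intronic Akap10 was also lower (-0.46, SE 0.11, edgeR adjusted p = 0.00406), a call kept with every library left out. Intronic Arhgef11 was higher (0.30, SE 0.10, edgeR adjusted p = 0.0215), a call lost in 4 of 8 cases. Of 8 effectors, phospholipase C beta and GIRK channel genes, Kcnj9, a GIRK channel subunit, fell by 0.27 in exons (SE 0.07). The other 7 did not pass the exonic test without the block, with which Plcb1 was called higher (adjusted p = 0.000999). In introns 0 of 6 rose and 1 fell, Kcnj3 at -0.42 (SE 0.12).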

How the data were processed

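Gene counts were analysed for 8 libraries, 4 Mock and 4 Pilo, grouped by the sample titles. The deposited values are raw read counts per gene, exonic counts by Ensembl gene in a first table and exonic and intronic counts by Entrez gene in a second. Per the submitters' processing notes, mm10 was the build, and edgeR, HTSeq 0.11.2, STAR 2.7.1a, Trimmomatic 0.39 and R 4.1.1 are listed without saying what each did. Annotation, strand setting and intron counting are not stated there. Symbols matched 55144 of 55471 Ensembl and 18507 of 18513 Entrez identifiers.

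Tests used edgeR 4.0.16 under R 4.3.3 (quasi-likelihood F-test, robust, TMM, filterByExpr with a minimum count of 10, Benjamini-Hochberg adjustment over all genes tested at 0.05), with treatment as the only term. The standard error is the size of the fitted coefficient over the square root of F. The exonic and intronic changes were compared in the second table by the interaction of region with treatment, with sample as a covariate and scaling per region. The edgeR, DESeq2, limma-voom and blocked fits of exons and of introns were run on simulated counts, as was the interaction in edgeR and limma-voom. Other scaling and filters, and the interaction with the replicate block, were not simulated. The simulated libraries had no pairing, and exons and introns were drawn separately. DESeq2 1.42.0, limma-voom (limma 3.58.1), other scaling, filters, tables, the replicate block and each library left out were alternatives.

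Same-numbered libraries deviated together from their group means in every pair (Pearson r 0.425 to 0.477 in exons and 0.332 to 0.503 in introns, across genes). The numbers of the titles were therefore taken as pairs. For Rgs genes the blocked value is given where it changes a call in exons or introns. For genes outside the family it is given as a range in exons, and in introns only the blocked counts are given. Columns were assigned by name. Deviations over genes matched number 2 of the first table to number 3 of the second in both groups, and the reverse, with r of 0.993 or more. Replicate pairs of a group had a chi-square of 10.3 to 34.9 per degree of freedom, above counting noise.

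The genes named are the 10 members, the other Rgs genes, and up to 4 called genes of smallest p per list of G-protein signalling genes, with any other gene named, such as Gpr158, chosen after its values were seen. The members and lists were chosen with earlier results of these data known. Promoter letters are from RefSeq on GRCm38.p6.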

Additional observations from a re-analysis of the deposited data

Results flagged for a closer look

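In 66 groups of 4 samples, the highest or lowest value of a tested Rgs gene was compared with its nearest neighbour, and 5 stood far from the others by Dixon's criterion at 95%. Chance flags about 1 in 20 groups. Rgs4 intronic level was 72.3 CPM in Pilo replicate 2, the nearest sample being at 57.1 CPM. Rgs19 intronic level in the same library was 12 CPM, next to 9.49 CPM. By the correlation of deviations this library is Pilo replicate 3 of the exonic table, so 3 of the 5 values, with that of Rgs5, are from the library with the most endothelial marker RNA. Rgs10 intronic level was 9.28 CPM in Mock replicate 1, below the nearest sample at 13.1 CPM. Rgs3 intronic level was 14.3 CPM in Pilo replicate 4, next to 11.2 CPM. Rgs5 exonic level was 25.8 CPM in Pilo replicate 3, next to 6.05 CPM, and the summed endothelial markers in that library were 54.6 CPM.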

How the results depend on the processing

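The 5 exonic rises of Rgs2, Rgs4, Rgs7, Rgs12 and Rgs16 kept their direction and their call in every alternative and with every library left out, as did the intronic rises of Rgs2, Rgs4, Rgs7 and Rgs12 and the exon minus intron differences of Rgs2 and Rgs4. The number of exonic members called was 8 in DESeq2, 9 with the replicate block and 5 to 7 with a library left out. Over all genes, 3297, 4572 and 2487 to 3113 were called higher in these fits, beside 2994 in the main test. The block also gave 27 higher pathway genes and 4572 higher genes in exons and 14 lower pathway genes in introns, and beyond the calls given with the results it changed no other call of an Rgs gene. Pathway genes lower in exons numbered 2 to 5 with a library left out. Leaving out the Mock and Pilo library with the most endothelial marker RNA was an alternative chosen after seeing the data. It left 0 members and 919 genes with an exonic change above the intronic (Rgs8 adjusted p = 0.118), ended the intronic Rgs20 call (adjusted p = 0.0726), as no filter on low counts did (adjusted p = 0.0502), and ended the exonic Gnao1 call (0.35, adjusted p = 0.0543). It brought exonic Rgs20 (0.44, adjusted p = 0.0382) and intronic Rgs17 (0.39, adjusted p = 0.0485) past the threshold, and gave -0.024 for exonic Rgs3, -0.00451 for exonic Rgs11, -0.037 for intronic Rgs10 and -0.000903 for intronic Rgs14. Members with an exonic change above the intronic numbered 0 to 1 with a library left out.

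With a single scaling factor per sample, 2 members (Rgs8 and Rgs14), 5822 genes above and 406 genes below were called in the exon minus intron comparison. This scaling turned the sign of Rgs6 (0.21), Rgs7 (0.18), Rgs12 (0.15), Rgs16 (0.071), Rgs20 (0.22), Rgs3 (0.11), Rgs9 (0.21), Rgs11 (0.19) and Rgs22 (0.010), and Rgs9 (adjusted p = 0.0321), Rgs11 (adjusted p = 0.0303) and Rgs17 (adjusted p = 0.0148) then passed the test. The shift of the median over all genes given with the results is of the same size as these values, and the cause of single changes was not tested.

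Other values changed sign elsewhere, none of them called with or without the change. Exonic Rgs5 was the largest of these, its 0.79 turning without Pilo replicate 3. Exonic Rgs11 was -0.000228 with a minimum count of 50 and -0.00382 from the second table's exonic counts, and intronic Rgs10 was -0.00208 in limma-voom. With a library left out, exonic values ran from -0.038 to 0.10 for Rgs3, -0.19 to 1.22 for Rgs5, -0.13 to 0.088 for Rgs9, -0.066 to 0.11 for Rgs11 and -0.25 to 0.068 for Rgs22. Intronic values ran from -0.11 to 0.17 for Rgs10, -0.098 to 0.073 for Rgs9 and -0.030 to 0.13 for Rgs11. Exon minus intron values ran from -0.11 to 0.053 for Rgs6, -0.11 to 0.014 for Rgs7, -0.019 to 0.12 for Rgs10, -0.44 to 0.019 for Rgs16, -0.078 to 0.028 for Rgs20 and -0.073 to 0.026 for Rgs9. Depth limits Rgs16 introns, with 18 to 58 counts per library.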
